A study of Homo sapiens with 18 samples.

Results

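The genes described here encode secreted and membrane-bound metalloproteases of the extracellular matrix and the inhibitors that restrain them. The members are the protein-coding genes of the deposited table whose symbols belong to the ADAMTS, ADAMTS-like (ADAMTSL), MMP and TIMP families, without the 9 MMP genes clustered on chromosome 11q22. The family pattern matched 52 symbols, of which 1, MMP23A, is a pseudogene, and 42 genes remained: 19 ADAMTS, 5 ADAMTSL, 14 MMP and 4 TIMP genes, out of 58721 identifiers in the table. Of these 42, 35 had enough counts to be tested, among 21060 genes tested in all.

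Expression was measured by RNA sequencing in A375, an established human melanoma cell line, in 18 libraries that fall into 6 groups of 3. TADA2B, a subunit of the SAGA chromatin-modifying complex, was targeted with 2 different guides (labelled TADA2Bsg1 and TADA2Bsg2, here guide 1 and guide 2 knockout), each without and with overexpression of SOX10 (labelled SOX10OE), a transcription factor that specifies neural crest cells and pigment cells. The reference cells carried a guide against GFP (GFPsg, here control), again without and with SOX10, so that every group carried a guide. The labels do not say whether a knockout line is 1 clone or a pool, which construct or promoter drives SOX10, or whether the 3 libraries of a group came from separate cultures, so p-values measure only the spread between these libraries, which may be technical.

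The MMP and ADAMTS families are zinc-dependent proteases made as inactive precursors. They cut collagens, proteoglycans and other matrix and cell-surface proteins, while the TIMP proteins bind the active sites of MMPs and, in the case of TIMP3, of several ADAM and ADAMTS proteases as well. Membrane-type MMPs act at the surface of invading cells, and MMP14 together with TIMP2 is the textbook activator of the MMP2 precursor. ADAMTS-like proteins share the ancillary domains of the ADAMTS proteases but lack the protease domain, and several of them associate with fibrillin microfibrils.

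Promoter windows from 250 bases before to 50 bases after the RefSeq transcription start (build GRCh38.p14) were matched by symbol for 27 of the 42 members. Shown are those of TIMP3, which had the largest fitted fall after knockout, of MMP15, which was higher with SOX10 in both genetic backgrounds, and of ADAMTS6, which had the largest fitted rise after knockout. They lie at chr22:32801455-32801754 on the plus strand, chr16:58025504-58025803 on the plus strand and chr5:65481871-65482170 on the minus strand. Capitals mark a SOX core motif (ACAAAG or ACAATG, both strands searched) or an E-box (CACGTG), and the sequences read 5′ to 3′ toward the gene.
TIMP3: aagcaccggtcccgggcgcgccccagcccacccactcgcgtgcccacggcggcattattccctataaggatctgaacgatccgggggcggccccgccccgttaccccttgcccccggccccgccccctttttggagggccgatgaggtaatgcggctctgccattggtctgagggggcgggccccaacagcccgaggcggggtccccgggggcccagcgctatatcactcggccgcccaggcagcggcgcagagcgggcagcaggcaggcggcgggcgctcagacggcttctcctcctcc
MMP15: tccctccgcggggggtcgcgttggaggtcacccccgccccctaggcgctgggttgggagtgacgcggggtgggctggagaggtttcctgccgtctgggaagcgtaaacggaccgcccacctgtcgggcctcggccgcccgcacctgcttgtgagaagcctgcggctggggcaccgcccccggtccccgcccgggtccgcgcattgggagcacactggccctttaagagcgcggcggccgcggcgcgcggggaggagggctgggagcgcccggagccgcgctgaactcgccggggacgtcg
ADAMTS6: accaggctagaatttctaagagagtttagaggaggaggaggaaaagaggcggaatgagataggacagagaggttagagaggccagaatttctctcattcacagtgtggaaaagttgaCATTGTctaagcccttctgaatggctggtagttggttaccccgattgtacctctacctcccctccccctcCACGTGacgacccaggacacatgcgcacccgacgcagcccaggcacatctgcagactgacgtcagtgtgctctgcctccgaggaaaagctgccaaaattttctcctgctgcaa
The ADAMTS6 window held 1 SOX core, whose first base lies 133 bases before the start, and 1 E-box, 63 bases before it. The TIMP3 and MMP15 windows held none of the motifs searched, which says only that these letters are not in these windows. A SOX core was found in 4 of the 27 member windows (14.8%: ADAMTS6, ADAMTS19, ADAMTSL1 and MMP26) and in 24.5% of 35116 windows of the same length. The E-box was found in 3 member windows (11.1%: ADAMTS6, ADAMTS17 and MMP21) and in 7.26% of all windows. The AP-1 motif (TGACTCA or TGAGTCA) was in none of the 27 and in 4.95% of all. Each member has 1 window, whereas the 35116 windows were not reduced to 1 per gene or to protein-coding genes, so the shares are not strictly alike. GC content was 72.7% in the TIMP3 window, 75.3% in the MMP15 window and 52% in the ADAMTS6 window, against a median of 58.7% over all windows.

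Library totals ran from 58573910 to 79874237 counts. Mitochondrial genes took 0.986 to 1.46% of them in knockout libraries with SOX10 and 0.803 to 1.03% in control libraries with SOX10, against 0.996 to 1.19% in knockout and 0.732 to 0.996% in control libraries without it, and the part of this share in the results was not tested. TADA2B itself was lower in knockout cells by 0.25 on the log2 scale (adjusted p = 1.16e-06), at 26.0 and 28.8 CPM with guides 1 and 2 and 32.5 CPM in control, where CPM is the count divided by the scaled library total and given per 1e6 counts. A gene-level count does not read whether a guide has cut the reading frame. SOX10 counts averaged 291.3, 246.3 and 452.2 CPM in the guide 1, guide 2 and control cells with overexpression, against 83.6, 43.4 and 354.1 CPM without it. These counts do not separate introduced from endogenous SOX10 transcripts. SOX10 thus rose more in knockout than in control cells, so a difference of SOX10 effects does not compare equal rises of SOX10. Checked against the label, a list of 12 melanocyte lineage markers summed to 903.0 to 936.8 CPM in control libraries, with no marker at 0 and 3 under 1 CPM. The list includes SOX10 itself, at 354.1 CPM on average in control cells. The fourth principal component of log CPM held 2.27% of the variance. On it guide 2 replicate 2 lay at −26.4, against −4.28 and −8.17 for the other libraries of its group. The 3 libraries of guide 2 with SOX10 were spread along it, replicates 1, 2 and 3 lying at −0.175, −13.3 and −24.3.

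After TADA2B knockout the dominant inhibitor, TIMP3, was 12.2-fold lower, and the membrane-type proteases MMP14, MMP15, MMP16 and MMP17 were 1.93- to 8.76-fold lower. The other membrane-type members, MMP24 and MMP25, were not called (log2 0.42 and 0.18). The 4 tested ADAMTS-like genes were 3.15- to 3.46-fold higher, and ADAMTS6 was 7.92-fold higher. Of the 35 tested members 29 changed, against 58.1% of all tested genes: 18 were higher (28.6% of all genes) and 11 were lower (29.5%). Changes of at least 2-fold were found for 18 members (15.0% of all genes), 12 of them higher (9.57%) and 6 lower (5.38%). The median absolute log2 change of the members was 1.08, against 0.28 over all tested genes, and their median signed change was 0.31, against −0.01. In bulk RNA, fewer cells of a kind and less RNA per cell cannot be told apart. With library totals alone as the scale, the log2 changes of all genes shifted upward by a median of 0.156, and no member lost its call in this comparison.

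**Figure D1:**
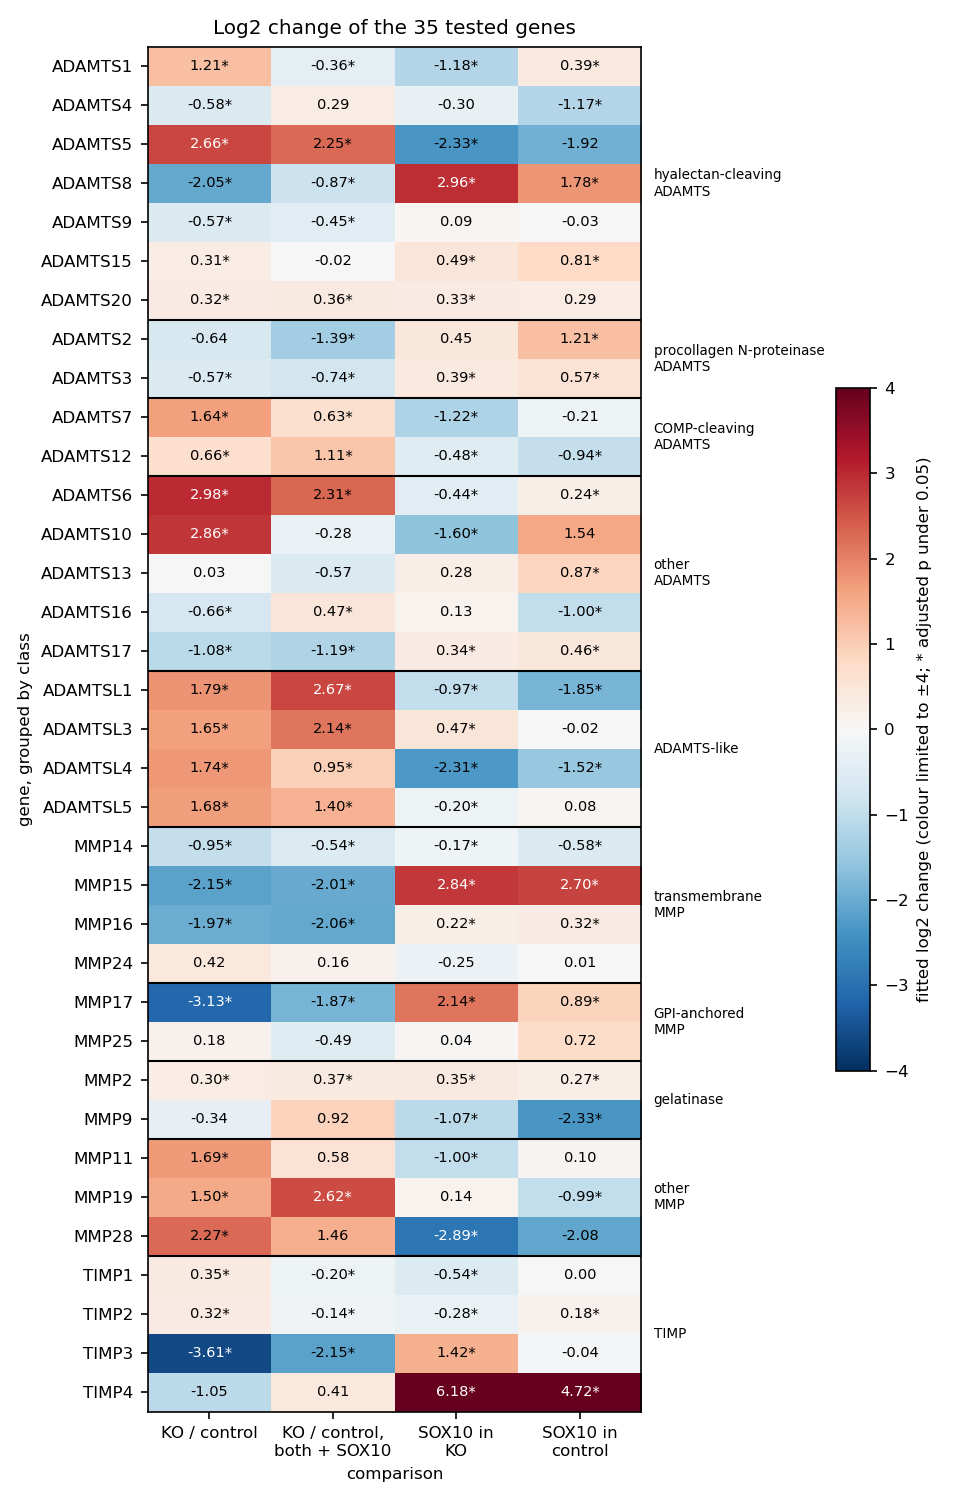
Fitted log2 change of each of the 35 tested genes (rows, grouped by class) in 4 comparisons (columns): knockout over control (KO / control), the same with SOX10 in both, and SOX10 over no SOX10 in knockout and in control cells. An asterisk marks an adjusted p under 0.05. The 4 ADAMTS-like genes are positive in both knockout columns, and TIMP3, MMP15, MMP16 and MMP17 are negative in both.

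Per kilobase of exon, TIMP3 had the highest level of any member in control cells, at 403.1 CPM per kb, followed by TIMP1 (127.1), MMP2 (28.6), MMP14 (26.3), MMP16 (20.5) and TIMP2 (16.0). In guide 1 knockout cells TIMP1 stood first at 160.0 CPM per kb, with TIMP3 at 48.3 and MMP2 at 37.8. With guide 2 the order was TIMP1 (163.5), MMP2 (32.8) and TIMP3 (22.6). TIMP3 made up 21.1% and 11.0% of the summed TIMP level per kb in guide 1 and guide 2 knockout cells, against 73.8% in control cells. With SOX10 its share was 47.8% and 34.6% in the knockout lines, against 73.0% in control cells with SOX10.

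TIMP3 binds the matrix and inhibits the broadest set of proteases of the 4 inhibitors. It lies on the plus strand of chromosome 22 from 32801701 to 32863043 (hg38), inside SYN3, which runs on the opposite strand and shares no exon base with it. It measured 225.2, 224.2 and 217.1 CPM in guide 1 and 106.5, 103.1 and 102.1 CPM in guide 2 knockout libraries, against 1853.0, 1864.1 and 1848.7 CPM in control libraries. Every knockout library lay far below every control library, and the guides did not overlap. The log2 change was −3.61 (SE 0.0201, adjusted p = 3.40e-54). The host gene SYN3 averaged 0.672 and 0.524 CPM with guides 1 and 2, against 0.982 CPM in control. With SOX10, TIMP3 measured 558.3, 577.2 and 559.8 CPM in guide 1 and 295.8, 296.8 and 291.0 CPM in guide 2 knockout libraries, against 1828.0, 1805.5 and 1789.9 CPM in control libraries with SOX10. All 6 knockout libraries with SOX10 stood above the knockout libraries without it and below all control libraries. SOX10 overexpression raised TIMP3 2.69-fold in knockout cells (log2 1.42, SE 0.0173, adjusted p = 3.11e-42), while the log2 change in control cells was −0.04 (SE 0.0234, adjusted p = 0.236). The difference between these SOX10 effects was 1.46 (SE 0.0291, adjusted p = 1.38e-33).

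TIMP1, the soluble inhibitor that also binds the MMP9 precursor, lies inside SYN1 on the X chromosome. It was counted at 242.3, 252.9 and 244.3 CPM in guide 1 and 262.6, 236.4 and 256.9 CPM in guide 2 knockout libraries, against 193.4, 199.6 and 194.7 CPM in control libraries. The knockout and control ranges did not overlap, and the fold was 1.27 (log2 0.35, SE 0.0276, adjusted p = 2.38e-14). With SOX10 the values were 173.3, 179.0 and 187.1 CPM in guide 1 and 163.7, 161.6 and 161.7 CPM in guide 2 knockout libraries, against 192.5, 196.0 and 199.0 CPM in control libraries. SOX10 lowered TIMP1 in knockout cells by 0.54 on the log2 scale (adjusted p = 9.14e-24). In control cells the log2 change was 0.00 (SE 0.0315, adjusted p = 0.990).

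TIMP2, the partner of MMP14 in activating MMP2, measured 120.2, 118.3 and 114.1 CPM in guide 1 and 108.7, 107.7 and 106.8 CPM in guide 2 knockout libraries, against 92.0, 90.1 and 88.1 CPM in control libraries. All knockout libraries were higher, by 1.25-fold (log2 0.32, SE 0.0272, adjusted p = 1.54e-13). With SOX10 it measured 97.6, 98.0 and 99.1 CPM in guide 1 and 90.0, 88.2 and 83.0 CPM in guide 2 knockout libraries, against 102.4, 101.6 and 101.9 CPM in control libraries with SOX10. Among SOX10-overexpressing cells TIMP1 and TIMP2 were lower in knockout cells by 0.20 and 0.14 on the log2 scale (adjusted p = 5.06e-08 and 1.89e-05), but with library totals as the scale the changes were −0.05 (adjusted p = 0.0840) and 0.00 (adjusted p = 0.943).

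TIMP4, an inhibitor best known from heart and brain, was almost undetected without SOX10. Its counts summed to 1 over the 3 guide 1 knockout libraries, 0 over the guide 2 knockout libraries and 1 over the control libraries. With SOX10 they summed to 50, 54 and 38 in the guide 1 knockout, guide 2 knockout and control libraries. The CPM were 0.0905, 0.390 and 0.175 in guide 1, 0.305, 0.164 and 0.279 in guide 2 and 0.164, 0.201 and 0.162 in control cells with SOX10. Every library with SOX10 exceeded every library without it. The count ratio was 107 in knockout cells (104 against 1 count, exact 95% interval 18.7 to 4248.8) and 35.2 in control cells (38 against 1, 5.95 to 1427.9), intervals that cover counting error only. The edgeR adjusted p was 1.20e-09 in knockout and 0.000112 in control cells. TIMP4 shares 170 of its 1650 exon bases with SYN2 on the opposite strand. The strand setting of the counting is not given, so that reads within these shared bases could not be told apart. SYN2 averaged 0.409 and 0.402 CPM in the guide 1 and guide 2 knockout libraries, against 0.0953 CPM in control libraries. With SOX10 it averaged 0.270 and 0.351 CPM in the guide 1 and guide 2 knockout libraries, against 0.201 CPM in control libraries.

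**Figure D2:**
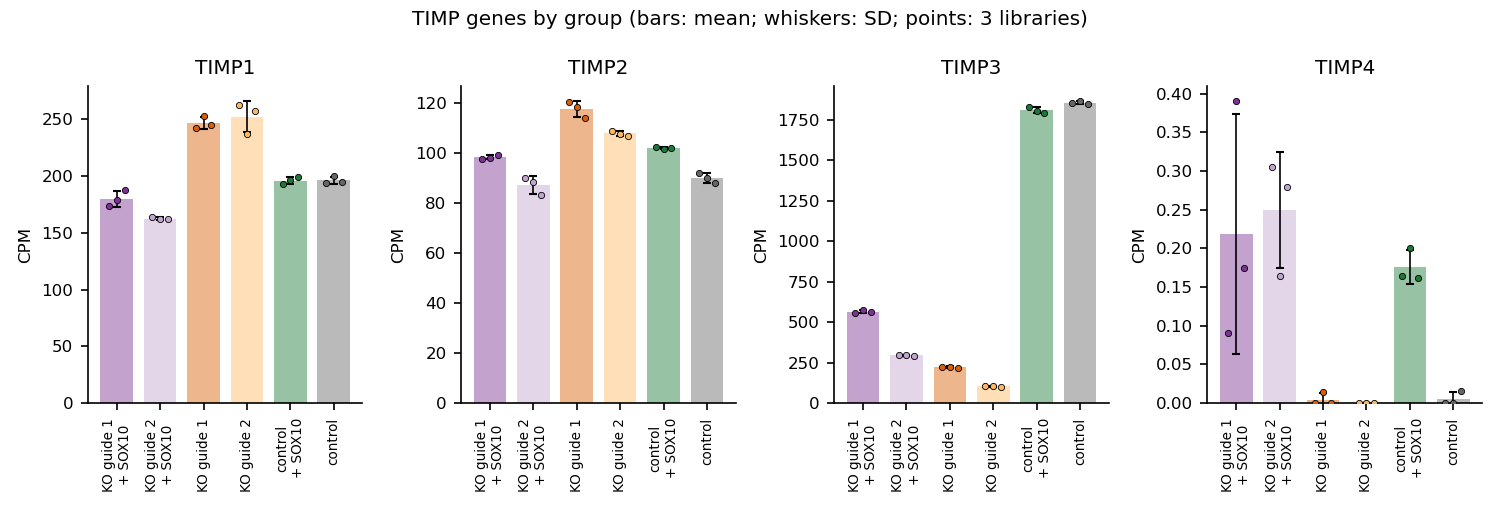
CPM of the 4 TIMP genes in the 6 groups; bars are means of 3 libraries, whiskers SD and points libraries, each panel on its own linear axis from 0. TIMP3 averages 222.2 and 103.9 CPM in the knockout groups without SOX10, against 1855.3 CPM in control, and TIMP4 is near 0 in the 3 groups without SOX10.

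Of the 4 transmembrane MMPs 3 fell after knockout (29.5% of all tested genes) and none rose (28.6%). MMP14, the collagenase of the invading cell surface, measured 72.8, 67.7 and 69.5 CPM in guide 1 and 55.2, 52.3 and 50.4 CPM in guide 2 knockout libraries, against 116.3, 115.5 and 119.9 CPM in control libraries. It was 1.93-fold lower (log2 −0.95, SE 0.0324, adjusted p = 1.60e-26), with no overlap. With SOX10 it was at 58.5, 62.0 and 60.9 CPM in guide 1 and 47.7, 50.0 and 46.8 CPM in guide 2 knockout libraries, against 83.8, 76.6 and 75.6 CPM in control libraries with SOX10. SOX10 lowered MMP14 by 1.12-fold in knockout cells (adjusted p = 1.71e-06) and by 1.49-fold in control cells (adjusted p = 3.19e-16).

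MMP16, a membrane-type protease abundant in these cells, measured 79.3, 79.4 and 73.9 CPM in guide 1 and 51.6, 52.8 and 52.7 CPM in guide 2 knockout libraries, against 255.1, 243.4 and 247.8 CPM in control libraries. The groups were far apart, and the fall was 3.91-fold (log2 −1.97, SE 0.0281, adjusted p = 7.50e-40). Among libraries with SOX10 it had 104.6, 99.9 and 94.7 CPM in guide 1 and 55.6, 53.6 and 56.8 CPM in guide 2 knockout libraries, against 307.0, 321.5 and 300.1 CPM in control libraries with SOX10. SOX10 raised it by 0.22 in knockout and 0.32 in control cells on the log2 scale (adjusted p = 3.89e-10 and 1.29e-10), and the test of the difference gave an adjusted p of 0.0774.

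MMP15, a membrane-type protease whose promoter window is shown above, measured 2.60, 2.71 and 2.27 CPM in guide 1 and 1.69, 1.34 and 1.25 CPM in guide 2 knockout libraries, against 8.73, 8.24 and 8.33 CPM in control libraries. It was 4.44-fold lower (log2 −2.15, SE 0.0786, adjusted p = 3.44e-25). Under SOX10 overexpression it reached 20.7, 20.7 and 19.8 CPM in guide 1 and 10.4, 8.57 and 8.12 CPM in guide 2 knockout libraries, against 55.3, 57.3 and 52.2 CPM in control libraries with SOX10. SOX10 raised MMP15 by 7.16-fold in knockout (adjusted p = 1.91e-32) and by 6.51-fold in control cells (adjusted p = 2.26e-29). The difference of these effects was 0.14 (SE 0.0979, adjusted p = 0.311). Guide 2 knockout libraries with SOX10 overlapped the range of control libraries without it, while guide 1 libraries with SOX10 lay above that range. MMP24, the remaining transmembrane MMP, averaged 1.00 and 1.09 CPM with guides 1 and 2 and 0.782 CPM in control (adjusted p = 0.0867), and it shares 799 exon bases with the opposite-strand gene MMP24OS, which had 21183 counts in all against 1208 for MMP24.

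MMP17 is anchored to the membrane by a glycolipid (GPI). It measured 1.18, 1.18 and 0.928 CPM in guide 1 and 0.538, 0.649 and 0.998 CPM in guide 2 knockout libraries, against 8.29, 7.43 and 7.81 CPM in control libraries. The fall was 8.76-fold (log2 −3.13, SE 0.107, adjusted p = 2.97e-26), and no knockout library came near the control range. With SOX10 it measured 4.72, 4.78 and 5.55 CPM in guide 1 and 3.52, 3.01 and 2.74 CPM in guide 2 knockout libraries, against 15.5, 13.8 and 14.1 CPM in control libraries with SOX10. SOX10 raised it 4.41-fold in knockout and 1.85-fold in control cells, a difference of 1.26 on the log2 scale (SE 0.144, adjusted p = 2.75e-09). The other GPI-anchored member, MMP25, had group means of 0.118 to 0.198 CPM and passed no test, and it shares 1454 exon bases with MMP25-AS1.

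**Figure D3:**
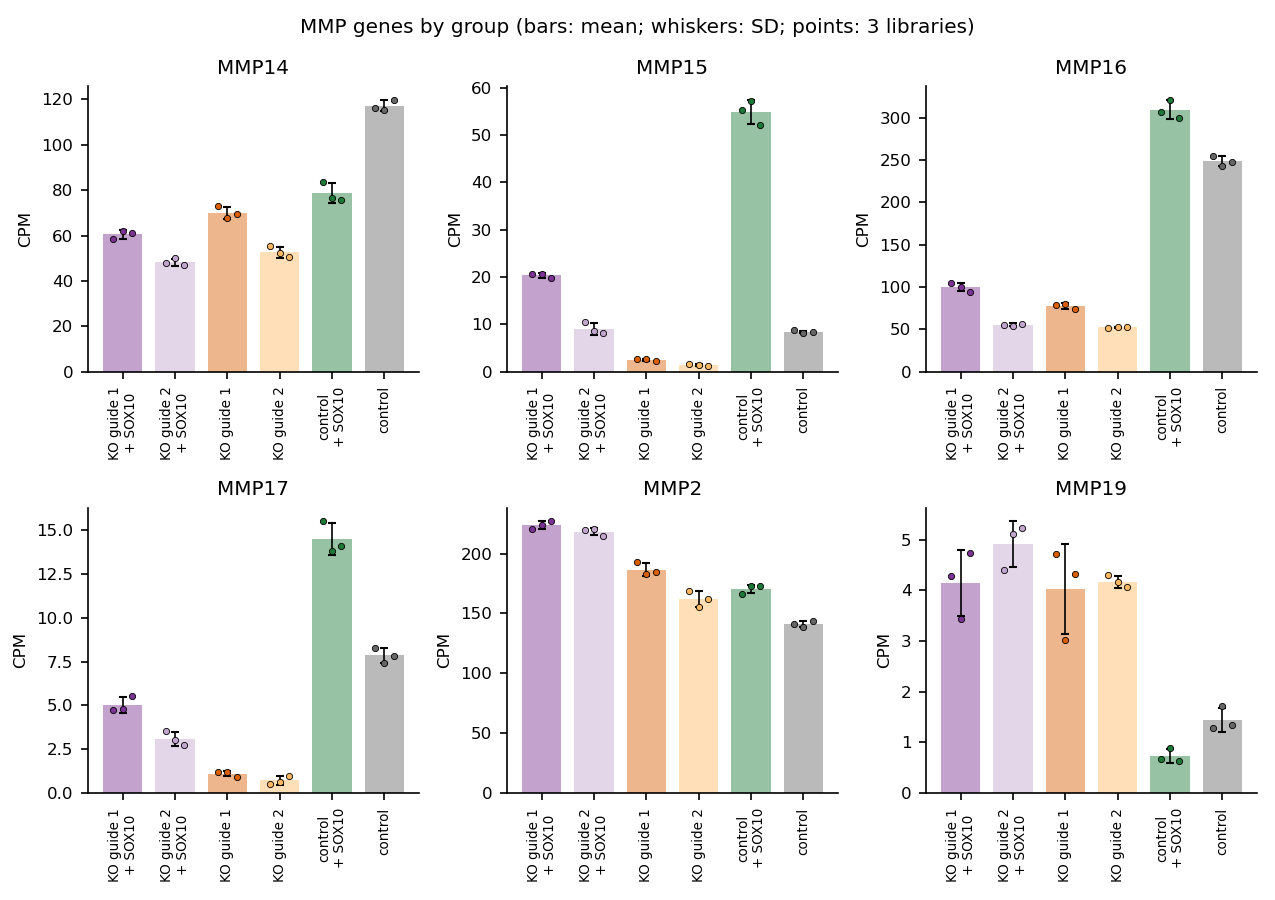
CPM of 6 MMP genes in the 6 groups; bars are means of 3 libraries, whiskers SD and points libraries, each panel on its own linear axis from 0. MMP14, MMP15, MMP16 and MMP17 are lower in knockout than in control cells both with and without SOX10, and MMP2 and MMP19 are higher.

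Among the secreted MMPs, the gelatinase MMP2 measured 192.8, 183.0 and 184.2 CPM in guide 1 and 168.4, 155.1 and 162.1 CPM in guide 2 knockout libraries, against 140.9, 139.0 and 143.4 CPM in control libraries. All knockout libraries were above the control range, by 1.23-fold (log2 0.30, SE 0.0257, adjusted p = 2.16e-13). SOX10 raised it 1.27-fold in knockout cells and 1.21-fold in control cells (adjusted p = 2.73e-18 and 3.37e-10). The other gelatinase, MMP9, averaged 0.329 and 0.180 CPM with guides 1 and 2 and 0.309 CPM in control (adjusted p = 0.535). MMP9 was lower with SOX10 in control cells, at 0.0612 CPM against 0.309 CPM (log2 −2.33, adjusted p = 0.00323). It was also lower with SOX10 in knockout cells (log2 −1.07, adjusted p = 0.0231), a call lost without guide 1 replicate 2, guide 2 replicate 3, replicate 2 or 3 of guide 1 with SOX10 or replicate 3 of guide 2 with SOX10 (log2 −0.91 to −0.86, adjusted p 0.0624 to 0.0807).

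MMP19, a secreted protease of the vascular and epidermal matrix, measured 4.72, 3.03 and 4.33 CPM in guide 1 and 4.30, 4.16 and 4.06 CPM in guide 2 knockout libraries, against 1.28, 1.72 and 1.35 CPM in control libraries. It was 2.82-fold higher (log2 1.50, SE 0.137, adjusted p = 3.51e-12), with no overlap. Among libraries with SOX10 it had 4.28, 3.44 and 4.73 CPM in guide 1 and 4.40, 5.12 and 5.23 CPM in guide 2 knockout libraries, against 0.668, 0.886 and 0.632 CPM in control libraries with SOX10. The SOX10 effect on MMP19 was 0.14 in knockout cells (log2, adjusted p = 0.213) and −0.99 in control cells (adjusted p = 5.83e-05), and these effects differed (log2 1.13, SE 0.212, adjusted p = 4.98e-05). MMP19 shares 814 exon bases with the opposite-strand pseudogene TMEM198B, which had more counts. MMP11, a stromelysin activated by furin, was at 0.430 to 1.05 CPM in knockout and 0.123 to 0.283 CPM in control libraries (log2 1.69, adjusted p = 1.14e-05). It shares 218 exon bases with the opposite-strand gene CHCHD10, which had 7905 counts in all against 517 for MMP11. MMP28, an epidermal MMP also called epilysin, summed to 32 and 26 counts with guides 1 and 2 and 5 counts in control (log2 2.27, adjusted p = 0.0203), and the call was lost when control replicate 1, control replicate 3 or guide 1 replicate 1 was left out (log2 1.71 to 1.90, adjusted p 0.0631 to 0.109). Without control replicate 2, which held all 5 control counts, the fitted log2 change was 6.24.

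Of the 7 ADAMTS proteases known for cutting the hyalectans aggrecan and versican, 4 rose after knockout (28.6% of all tested genes) and 3 fell (29.5%). ADAMTS1 measured 22.6, 22.5 and 21.9 CPM in guide 1 and 21.0, 22.1 and 21.8 CPM in guide 2 knockout libraries, against 9.36, 9.41 and 9.76 CPM in control libraries. It was 2.31-fold higher (log2 1.21, SE 0.0553, adjusted p = 4.27e-22), and the guides overlapped each other. Under SOX10 overexpression it reached 10.0, 10.4 and 10.8 CPM in guide 1 and 9.53, 9.27 and 8.40 CPM in guide 2 knockout libraries, against 13.5, 12.1 and 11.9 CPM in control libraries with SOX10. SOX10 lowered ADAMTS1 2.26-fold in knockout cells (adjusted p = 1.76e-25) and raised it 1.31-fold in control cells (adjusted p = 2.64e-06). The difference of the effects was −1.57 (SE 0.0768, adjusted p = 3.42e-20). ADAMTS5, its neighbour 72.5 kb away on chromosome 21, was at 0.339 to 0.619 CPM in knockout and 0.0461 to 0.104 CPM in control libraries (log2 2.66, adjusted p = 1.66e-06).

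ADAMTS4, an aggrecanase induced by inflammatory signals, measured 1.21, 1.40 and 1.18 CPM in guide 1 and 0.778, 0.752 and 0.781 CPM in guide 2 knockout libraries, against 1.13, 1.54 and 1.75 CPM in control libraries. Guide 1 overlapped control and guide 2 did not. The log2 change over both guides was −0.58 (SE 0.183, adjusted p = 0.00617), and without control replicate 3 it was −0.44 (adjusted p = 0.0786). With SOX10 it measured 0.802, 0.754 and 0.674 CPM in guide 1 and 1.13, 0.779 and 0.624 CPM in guide 2 knockout libraries, against 0.928, 0.510 and 0.515 CPM in control libraries with SOX10. SOX10 lowered it in control cells by 1.17 on the log2 scale (adjusted p = 4.70e-05). ADAMTS9, a versican-cutting protease, was at 2.45 to 3.23 CPM in knockout and 3.87 to 4.74 CPM in control libraries (log2 −0.57, adjusted p = 3.94e-06).

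ADAMTS8 and ADAMTS15 lie 20 kb apart on chromosome 11, on opposite strands. ADAMTS15 was at 11.2 to 12.3 CPM in knockout and 8.89 to 9.68 CPM in control libraries (log2 0.31, adjusted p = 3.44e-06), and SOX10 raised it 1.40-fold in knockout and 1.75-fold in control cells. ADAMTS8 summed to 10 and 6 counts with guides 1 and 2, against 29 counts in control (log2 −2.05, adjusted p = 0.00171); without guide 1 replicate 1 the log2 change was −2.87 (adjusted p = 0.000101). SOX10 raised ADAMTS8 in knockout cells by 2.96 on the log2 scale (adjusted p = 1.54e-07; 3.78 without guide 1 replicate 1) and in control cells by 1.78 (adjusted p = 0.00218). ADAMTS20, mutated in the belted mouse, a coat colour mutant, averaged 2.69 and 3.00 CPM with guides 1 and 2 and 2.28 CPM in control (log2 0.32, adjusted p = 0.00901).

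The procollagen N-proteinases trim fibrillar collagens. ADAMTS3 was at 12.4 to 15.6 CPM in knockout and 20.4 to 23.0 CPM in control libraries (log2 −0.57, SE 0.0487, adjusted p = 2.74e-13), and SOX10 raised it 1.31-fold in knockout and 1.48-fold in control cells. ADAMTS2 averaged 0.343 and 0.143 CPM with guides 1 and 2 and 0.347 CPM in control (adjusted p = 0.0705). SOX10 raised ADAMTS2 in control cells, to 0.802 CPM (log2 1.21, adjusted p = 0.00160).

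Both proteases known for cutting cartilage oligomeric matrix protein rose after knockout, as did 28.6% of all tested genes. ADAMTS7 measured 6.40, 7.19 and 6.33 CPM in guide 1 and 7.08, 5.93 and 6.89 CPM in guide 2 knockout libraries, against 2.47, 2.05 and 1.87 CPM in control libraries. It was 3.11-fold higher (log2 1.64, SE 0.112, adjusted p = 2.19e-16), with the guides alike and apart from control. Among libraries with SOX10 it had 2.31, 2.90 and 3.09 CPM in guide 1 and 2.63, 3.38 and 2.83 CPM in guide 2 knockout libraries, against 1.77, 1.66 and 2.09 CPM in control libraries with SOX10. The SOX10 effect in knockout cells was 2.33-fold downward (adjusted p = 2.10e-16) and differed from that in control cells by −1.0 (SE 0.163, adjusted p = 3.37e-06).

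ADAMTS12 measured 54.1, 53.0 and 50.2 CPM in guide 1 and 45.4, 46.7 and 44.6 CPM in guide 2 knockout libraries, against 31.0, 29.6 and 32.3 CPM in control libraries. It was 1.58-fold higher (log2 0.66, SE 0.0389, adjusted p = 2.24e-18). Under SOX10 overexpression it reached 31.9, 35.4 and 34.1 CPM in guide 1 and 35.8, 36.2 and 36.7 CPM in guide 2 knockout libraries, against 15.8, 15.9 and 16.8 CPM in control libraries with SOX10. SOX10 lowered it in both backgrounds, by 1.40-fold in knockout and 1.92-fold in control cells (adjusted p = 2.35e-17 and 5.67e-20). The knockout effect among cells with SOX10 was 2.17-fold upward (adjusted p = 8.51e-25).

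ADAMTS6 and ADAMTS10 form a pair of proteases that act on fibrillin microfibrils and cell junctions. ADAMTS6 measured 39.5, 42.6 and 40.8 CPM in guide 1 and 64.8, 68.0 and 64.0 CPM in guide 2 knockout libraries, against 6.54, 6.77 and 6.32 CPM in control libraries. All knockout libraries were several times the control level, guide 2 above guide 1, and the fold was 7.92 (log2 2.98, SE 0.0502, adjusted p = 1.99e-37). With SOX10 it measured 31.6, 31.9 and 28.8 CPM in guide 1 and 47.4, 49.1 and 46.3 CPM in guide 2 knockout libraries, against 7.35, 7.62 and 8.16 CPM in control libraries with SOX10. SOX10 lowered it 1.35-fold in knockout cells (adjusted p = 1.11e-15) and raised it 1.18-fold in control cells (adjusted p = 0.00284). ADAMTS10 was at 0.239 to 0.552 CPM in knockout and 0.0298 to 0.0922 CPM in control libraries (log2 2.86, SE 0.525, adjusted p = 9.99e-06). The SOX10 effect on ADAMTS10 differed between knockout and control cells by −3.14 (adjusted p = 0.000553), and by −2.46 (adjusted p = 0.0164) without replicate 3 of the control cells with SOX10.

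ADAMTS17, a protease linked to fibrillin and a Weill-Marchesani-like syndrome, measured 1.35, 1.11 and 1.62 CPM in guide 1 and 1.93, 1.64 and 1.66 CPM in guide 2 knockout libraries, against 3.13, 3.39 and 3.23 CPM in control libraries. It was 2.11-fold lower, with no overlap (log2 −1.08, SE 0.115, adjusted p = 9.33e-11). Among libraries with SOX10 it had 2.06, 2.11 and 1.97 CPM in guide 1 and 2.01, 1.90 and 1.69 CPM in guide 2 knockout libraries, against 3.79, 4.81 and 4.78 CPM in control libraries with SOX10. ADAMTS16 was at 2.11 to 2.91 CPM in knockout and 3.29 to 4.18 CPM in control libraries (log2 −0.66, adjusted p = 9.28e-07). ADAMTS13, which cuts von Willebrand factor, averaged 0.449 and 0.339 CPM with guides 1 and 2 and 0.385 CPM in control (adjusted p = 0.944). SOX10 raised ADAMTS13 in control cells (log2 0.87, adjusted p = 0.0224), a call lost when control replicate 2, control replicate 3 or replicate 1 or 2 of the control cells with SOX10 was left out (log2 0.69 to 0.84, adjusted p 0.0588 to 0.124).

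All 4 tested ADAMTS-like genes rose after knockout (28.6% of all tested genes). ADAMTSL1 measured 14.4, 13.3 and 14.6 CPM in guide 1 and 16.1, 15.0 and 15.6 CPM in guide 2 knockout libraries, against 4.23, 4.49 and 4.13 CPM in control libraries (3.46-fold, log2 1.79, SE 0.0733, adjusted p = 9.02e-24). No knockout library overlapped control. Under SOX10 overexpression it reached 6.47, 6.66 and 5.56 CPM in guide 1 and 9.62, 9.09 and 8.76 CPM in guide 2 knockout libraries, against 1.21, 1.28 and 1.06 CPM in control libraries with SOX10. SOX10 lowered it 1.96-fold in knockout and 3.61-fold in control cells (adjusted p = 1.50e-19 and 4.28e-18). The difference of the effects was 0.88 (SE 0.122, adjusted p = 1.67e-07).

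ADAMTSL4, which binds fibrillin and is mutated in inherited lens dislocation, measured 10.9, 10.1 and 11.1 CPM in guide 1 and 12.5, 11.0 and 10.2 CPM in guide 2 knockout libraries, against 3.37, 3.22 and 3.24 CPM in control libraries (3.34-fold, log2 1.74, SE 0.103, adjusted p = 5.60e-18). With SOX10 it measured 2.42, 2.25 and 2.34 CPM in guide 1 and 1.83, 2.16 and 2.35 CPM in guide 2 knockout libraries, against 1.60, 0.886 and 0.941 CPM in control libraries with SOX10. All knockout libraries with SOX10 were below the control libraries without it, and the SOX10 effect was 4.95-fold downward in knockout (adjusted p = 4.40e-25) and 2.86-fold downward in control cells (adjusted p = 1.92e-11). ADAMTSL4 shares 736 exon bases with ADAMTSL4-AS1, which had 100 counts in all against 6922.

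ADAMTSL3 measured 2.46, 2.45 and 2.72 CPM in guide 1 and 3.59, 2.88 and 3.02 CPM in guide 2 knockout libraries, against 0.849, 0.978 and 0.876 CPM in control libraries (3.15-fold, log2 1.65, SE 0.143, adjusted p = 3.06e-13). Among libraries with SOX10 it had 3.13, 3.37 and 3.11 CPM in guide 1 and 4.31, 4.82 and 5.41 CPM in guide 2 knockout libraries, against 1.13, 0.604 and 0.941 CPM in control libraries with SOX10. SOX10 raised it by 1.39-fold in knockout cells (adjusted p = 2.86e-05), whereas the log2 change in control cells was −0.02 (adjusted p = 0.959). ADAMTSL5, which binds fibrillin and is studied as a melanocyte autoantigen in psoriasis, measured 4.57, 4.56 and 3.59 CPM in guide 1 and 5.35, 4.35 and 4.94 CPM in guide 2 knockout libraries, against 1.39, 1.44 and 1.43 CPM in control libraries (3.21-fold, log2 1.68, SE 0.114, adjusted p = 1.68e-16). Under SOX10 overexpression it reached 3.67, 3.17 and 3.70 CPM in guide 1 and 4.52, 4.73 and 4.08 CPM in guide 2 knockout libraries, against 1.51, 1.42 and 1.56 CPM in control libraries with SOX10. Its SOX10 effect in knockout cells was −0.20 (adjusted p = 0.0244), and the call was lost without guide 1 replicate 1 or 2, guide 2 replicate 1, replicate 2 of guide 1 with SOX10 or replicate 3 of guide 2 with SOX10 (log2 −0.17, adjusted p 0.0685 to 0.0849). Among cells with SOX10 all 4 ADAMTS-like genes were again higher in knockout than in control cells (28.2% of all tested genes). The folds ran from 1.94 (ADAMTSL4) to 6.37 (ADAMTSL1).

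**Figure D4:**
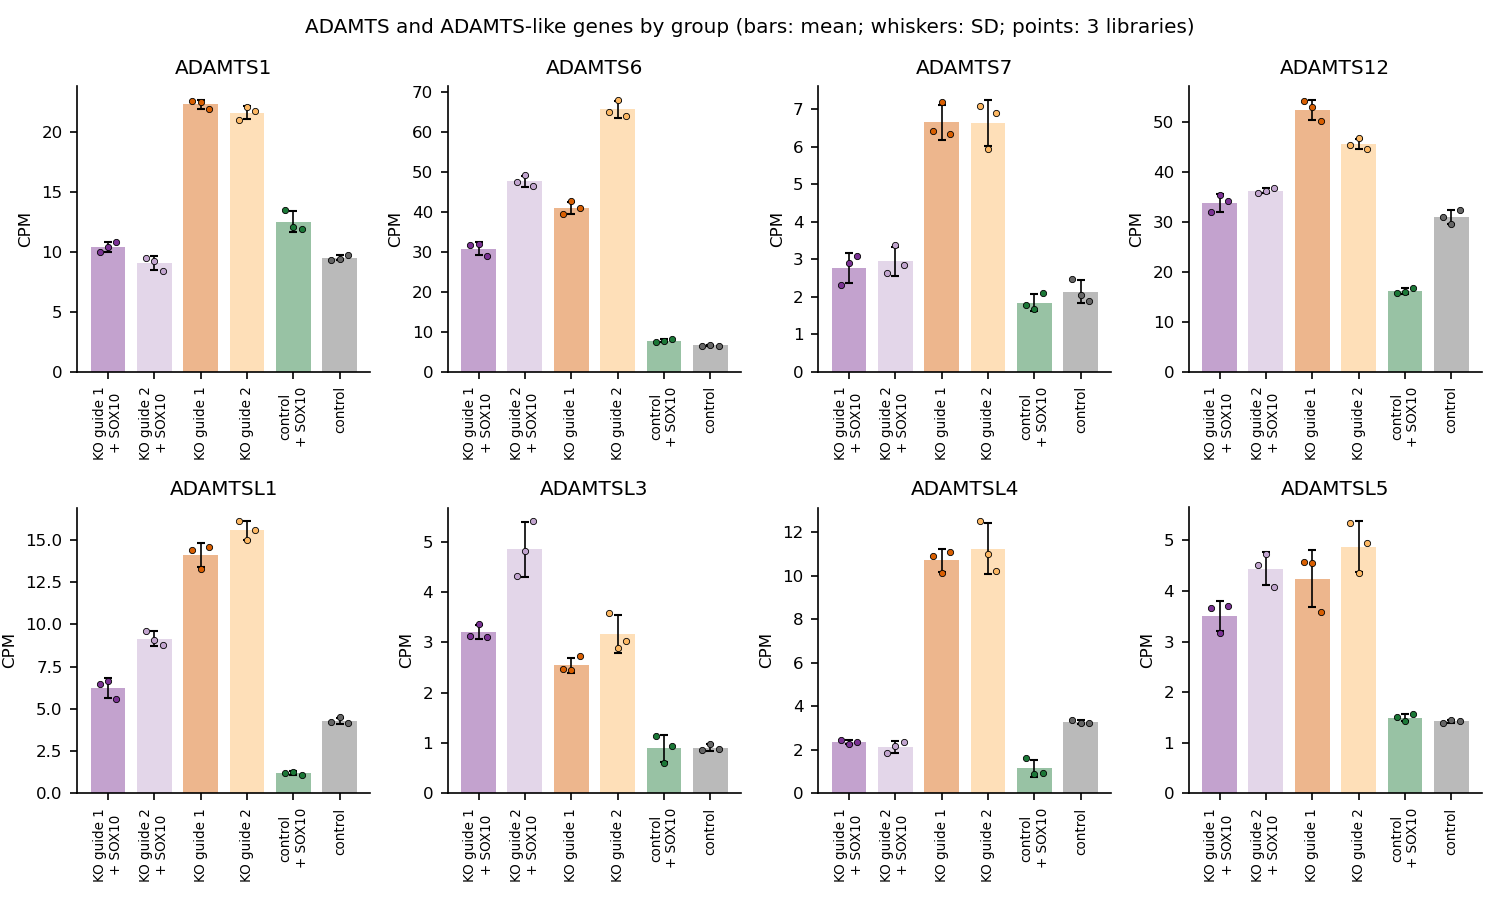
CPM of 4 ADAMTS and 4 ADAMTS-like genes in the 6 groups; bars are means of 3 libraries, whiskers SD and points libraries, each panel on its own linear axis from 0. All 8 genes are higher in both knockout groups than in control cells without SOX10, and ADAMTS1 and ADAMTSL4 are near or below that control level in knockout cells with SOX10.

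SOX10 overexpression changed 27 of the 35 members in knockout cells (56.2% of all genes), 12 upward (28.1%) and 15 downward (28.1%). In control cells it changed 22 (34.4% of all genes), 14 upward (17.3%) and 8 downward (17.2%). Changes of at least 2-fold were found for 13 members in knockout cells (12.0% of all genes), 5 upward (7.06%) and 8 downward (4.90%). In control cells there were 8 such members (6.46%), 4 upward (3.66%) and 4 downward (2.80%). The SOX10 effect differed between knockout and control cells for 17 members (33.3% of all genes), 8 with a higher (18.1%) and 9 with a lower (15.1%) effect in knockout cells. SOX10 counts themselves rose more in knockout cells, and the part of this in these differences was not tested. Knockout cells with SOX10 still differed from control cells without it for 24 members (57.9% of all genes), 12 of them higher (30.0%) and 12 lower (27.9%). TIMP3 remained 4.55-fold lower and ADAMTS6 5.85-fold higher in that comparison, MMP15 was 1.61-fold higher, and ADAMTS1 showed a log2 change of 0.03 (SE 0.0564, adjusted p = 0.644).

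Among SOX10-overexpressing cells the knockout changed 25 members (55.0% of all genes), 12 upward (28.2%) and 13 downward (26.7%). At least 2-fold changes were found for 13 (12.1%), 7 upward (9.05%) and 6 downward (3.08%). This comparison shares no library with that of knockout and control cells without SOX10. In all, 20 members were called in the same direction in both, which is 69% of the 29 called without SOX10 and 80% of the 25 called with it. For all tested genes these shares were 65.4% and 69.0%. The 4 members called in opposite directions were ADAMTS1, ADAMTS16, TIMP1 and TIMP2, of which the last 2 lost the second call with library totals as the scale. They make up 13.8% of the 29, and over all genes 6.51% of those called without SOX10 were called in the opposite direction with it. The libraries of guide 2 with SOX10 were spread on the fourth principal component, with replicate 3 lowest. Without that replicate, 24 of the 25 calls were kept and ADAMTS8 lost its call (log2 −0.75, adjusted p = 0.0829). Of the 27 SOX10 calls in knockout cells 25 were then kept, and those of MMP9 and ADAMTSL5 were lost. Without replicate 1 of that group, 24 of the 25 and all 27 were kept, and ADAMTS8 again lost its call (−0.79, adjusted p = 0.0736). The ADAMTS8 call, 1 of the 20, was lost in 6 of the fits that left out a library (−0.91 to −0.67, adjusted p 0.0643 to 0.185). It was also lost with library totals as the scale (−0.72, adjusted p = 0.0812). Over the 35 members the log2 changes of the comparisons had a Pearson r of 0.80 and a Spearman rho of 0.78, against a Pearson r of 0.70 over all tested genes. These are across genes, which are not independent, and the libraries within each comparison share their groups.

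**Figure D5:**
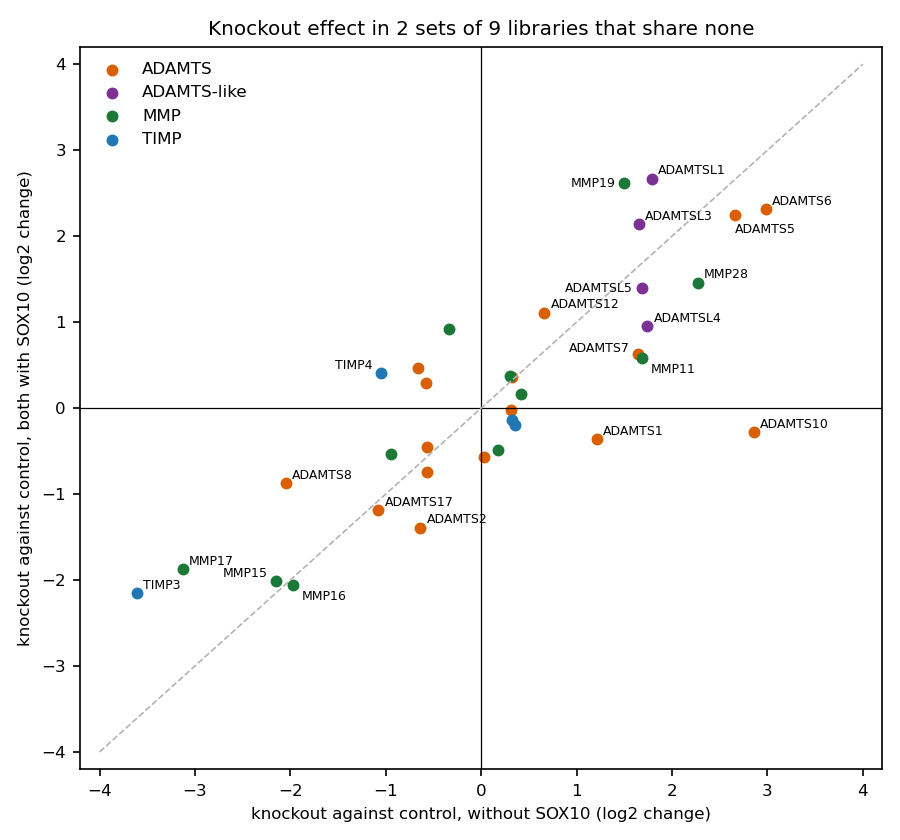
Log2 change of knockout over control for the 35 tested genes, in the 9 libraries without SOX10 (x axis) and in the 9 libraries with SOX10 (y axis), coloured by family, with the line of equal change dashed. Genes past a change of 1 on either axis are named. TIMP3, MMP15, MMP16 and MMP17 lie at the lower left, ADAMTS6 and the 4 ADAMTS-like genes at the upper right, and ADAMTS1 and ADAMTS10 right of 0 and slightly below it on the y axis.

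Set against control one at a time, guide 1 changed 27 members (52.6% of all genes), 17 upward (26.2%) and 10 downward (26.4%). Guide 2, against the same control libraries, changed 29 (55.9%), 17 upward (27.9%) and 12 downward (28.1%). Guide 2 differed from guide 1 for 11 members (8.74% of all genes), of which 10 were lower (6.09%) and 1, ADAMTS6, was higher (2.65%). TIMP3 was 2.14-fold lower with guide 2 than with guide 1, MMP15 1.76-fold, MMP16 1.48-fold and MMP14 1.33-fold, and ADAMTS6 was 1.60-fold higher. Without guide 2 replicate 2, the library without SOX10 that lay apart from its group, 8 of the 11 kept their call, while ADAMTS2 (log2 −1.12, adjusted p = 0.0902), ADAMTS4 (−0.69, adjusted p = 0.0774) and MMP17 (−0.51, adjusted p = 0.107) lost it. None of the 4 tested ADAMTS-like genes passed this test.

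Other genes of the same system were counted from lists. For comparison, 28.6% of all tested genes rose and 29.5% fell after knockout. Of 14 regulators and activators of metalloproteases 4 rose and 8 fell after knockout. A2M, the gene of the broad protease inhibitor alpha-2-macroglobulin, fell to 5.57 and 3.66 CPM with guides 1 and 2, against 56.2 CPM in control (log2 −3.64, adjusted p = 3.00e-42), and the convertase gene PCSK5 fell to 0.812 and 0.787 CPM, against 4.15 CPM (log2 −2.38, adjusted p = 3.39e-20). RECK, a membrane inhibitor of MMPs, was at 7.63 and 8.38 CPM, against 7.57 CPM in control (adjusted p = 0.335), and SOX10 raised it to 15.5 CPM in control cells (log2 1.03, adjusted p = 5.66e-15). Of 12 substrates and partners 10 were tested, 4 rising and 4 falling: versican (VCAN) rose to 8.39 and 7.56 CPM with guides 1 and 2, against 3.79 CPM, and aggrecan (ACAN) fell to 0.308 and 0.150 CPM, against 5.96 CPM. With SOX10 ACAN measured 15.8 and 14.0 CPM in the guide 1 and guide 2 knockout cells, against 64.0 CPM in control cells with SOX10. Of the 2 genes that add sugars to thrombospondin repeats 1 rose, POFUT2 (log2 0.34, adjusted p = 7.27e-07). Of 9 active membrane ADAM genes 7 were tested, and 4 fell and none rose. Of the 9 MMP genes of the 11q22 cluster 8 were tested, of which 6 rose and 1 fell.

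Marker lists of other cell types were read beside these changes, and their part in the results was not tested. Of all tested genes, 28.6% were higher and 29.5% lower after knockout. Melanocyte markers summed to 230.8 to 238.1 and 164.3 to 171.3 CPM in guide 1 and guide 2 knockout libraries, against 903.0 to 936.8 CPM in control libraries, 8 of 11 tested being lower and 3 higher. Fibroblast markers summed to 43.5 to 47.8 and 50.0 to 53.2 CPM in the knockout libraries, against 8.25 to 10.6 CPM, with 8 of 10 tested higher, 1 lower and none at 0. Within that list LUM was at 21.9 and 23.3 CPM, against 2.61 CPM in control. Epithelial markers summed to 373.1 to 390.7 and 387.3 to 418.1 CPM, against 198.6 to 199.0 CPM, with 7 of 8 tested higher and 1 lower, and CDH1 was at 0 in control. Endothelial markers summed to 4.63 to 5.08 and 3.86 to 4.62 CPM, against 5.87 to 6.33 CPM in control (2 of 7 tested higher, 2 lower). Leukocyte markers summed to 8.84 to 9.50 and 5.65 to 6.75 CPM, against 8.70 to 9.51 CPM (0 of 5 tested higher, 2 lower). Among libraries with SOX10, the melanocyte markers summed to 771.1 to 776.2 and 607.8 to 629.3 CPM in guide 1 and guide 2 knockout libraries, against 1430.4 to 1464.2 CPM in control libraries. The melanocyte sums, with and without SOX10 overexpression, include the counts of SOX10, the overexpressed gene, so part of their rise with SOX10 is that gene. The fibroblast markers summed to 52.2 to 62.5 CPM over both guides, against 17.2 to 18.4 CPM in control, and the epithelial markers to 319.9 to 349.9 and 369.7 to 380.7 CPM with guides 1 and 2, against 167.6 to 170.8 CPM in control. The endothelial markers came to 31.9 to 33.9 and 38.2 to 38.3 CPM, against 13.3 to 13.5 CPM in control libraries with SOX10, and the leukocyte markers to 18.5 to 19.7 CPM with guide 1 and at least 20.3 CPM in every library of guide 2, against 5.52 to 6.37 CPM. In each knockout group and in the control group, the endothelial sum with SOX10 was thus above that without it, and the leukocyte sum was above it in the knockout groups and below it in the control group.

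The 7 remaining members were not tested because their counts were low. MMP26 had a count of 0 in all 18 libraries, where 3 counts correspond to 0.0376 to 0.0512 CPM. Over all libraries MMP21 summed to 11 counts, ADAMTSL2 to 13, ADAMTS14 to 23, ADAMTS19 to 42, ADAMTS18 to 52 and MMP23B to 100. ADAMTS18 had 20 and 29 counts in guide 1 and guide 2 knockout libraries, against 0 in control libraries, but its antisense neighbour AC009139.1 shares 136 of its exon bases and also had 52 counts in all. Counts of MMP23B are uncertain because the pseudogene MMP23A is a near-identical copy.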

How the data were processed

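The 18 libraries were made from total RNA with a stranded mRNA kit, per the labels' protocols. The values deposited by the authors are raw counts of reads for each gene, in 1 table without normalization. HISAT2, HTSeq and hg38 are named, per the submitters' processing notes. The sources used here give no version or annotation for them and do not say how strand was set in counting. Of 58721 identifiers, 58676 were found in GENCODE 29, which gave symbols, biotypes, coordinates and exon lengths.

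The counts were modelled with edgeR 4.0.16 (R 4.3.3). After filterByExpr and TMM scaling (factors 0.930 to 1.05), genes were fitted as 6 group means in 1 robust quasi-likelihood model over all 18 libraries (12 residual degrees of freedom, common biological coefficient of variation 4.02%). Each contrast was tested two-sided with Benjamini-Hochberg adjustment over all 21060 genes tested, and a gene was called at an adjusted p under 0.05. The knockout effect is the mean over the 2 guides. All adjusted p-values of genes are from this quasi-likelihood test, log2 values are fitted changes with their standard error (SE), and CPM use the scaled library sizes. Members were ranked by level against each other only per kilobase of exon. Summed CPM of gene lists and counts of overlapping genes are not corrected for length.

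Full values are given for the TIMP genes and for members that met both of the following conditions. Their mean was at least 1 CPM in some group. They had a called change of at least 2-fold in the knockout effect, either SOX10 effect or the knockout effect within SOX10. Values in each library are also given for MMP14 and, without SOX10, for MMP2, which fall outside this rule. The members, their classes and all gene lists (regulators, sugar-adding genes, substrates, membrane ADAM genes, 11q22 MMP genes and cell type markers) were chosen with earlier results of these data known. Libraries of a group differed by more than sampling noise (chi-square per degree of freedom 3.54 to 11.8). Replicate numbers did not pair libraries across groups. The procedure was run on counts simulated from these data, with few genes changed and only the knockout effect tested. In the real data most genes were called for that effect, a setting that this run did not cover. Alternatives were other scalings, filters, DESeq2 1.42.0, a fit of only the groups compared, a replicate block and leaving out each library. Promoter windows are RefSeq's (GRCh38.p14). No amino acid sequence was used here.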

Additional observations from a re-analysis of the deposited data

Results flagged for a closer look

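The SOX10 effect differed between knockout and control cells, by the test of that difference, for 17 members (values are the log2 effect in knockout cells minus that in control cells). It was higher in knockout cells for TIMP3 (1.46), MMP17 (1.26), ADAMTS16 (1.13), MMP19 (1.13), ADAMTSL1 (0.88), ADAMTS4 (0.87), ADAMTS12 (0.46) and MMP14 (0.41). It was lower in knockout cells for ADAMTS10 (−3.14), ADAMTS1 (−1.57), ADAMTS7 (−1.0), ADAMTSL4 (−0.79), ADAMTS6 (−0.67), TIMP1 (−0.54), TIMP2 (−0.46), ADAMTS15 (−0.32) and ADAMTS3 (−0.18). SOX10 counts rose more in knockout than in control cells, and the part of this in these differences was not tested. The ADAMTS3 call was lost in 11 of the 18 fits that left out a library (−0.18 to −0.14, adjusted p 0.0569 to 0.147), and that of ADAMTS4 without control replicate 3 or replicate 2 or 3 of the control cells with SOX10 (0.72 to 0.73, adjusted p 0.0570 to 0.0642).

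Guide 2 differed from guide 1, by the test of that difference, for 11 members (log2, guide 2 minus guide 1). Levels were lower with guide 2 for ADAMTS2 (−1.23), TIMP3 (−1.10), MMP15 (−0.82), ADAMTS4 (−0.71), MMP16 (−0.57), MMP17 (−0.57), MMP14 (−0.41), ADAMTS12 (−0.20), MMP2 (−0.20) and TIMP2 (−0.13), and higher for ADAMTS6 (0.68). With a library left out, ADAMTS2 lost its call without replicate 1 or 2 of guide 1 and without replicate 2 or 3 of guide 2 (−1.27 to −0.93, adjusted p 0.0535 to 0.212), ADAMTS4 without any 1 of the 6 knockout libraries (−0.76 to −0.63, adjusted p 0.0540 to 0.148) and MMP17 without replicate 1 or 2 of either guide (−0.52 to −0.38, adjusted p 0.107 to 0.235). SOX10 was at 43.4 CPM in guide 2 and 83.6 CPM in guide 1 knockout cells, and its part in these differences was not tested.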

How the results depend on the processing

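Under 25 alternative settings, 18 of which left out 1 library, 671 values of the 27 counts of members or genes called stayed within 1.5 times the reported count. The exception was the number of members higher with guide 2 than with guide 1, which ran from 1 to 2 when a library was left out (2 without guide 1 replicate 3, where ADAMTS17 was added; the cause was not tested). Over all 9 comparisons the 35 tested members had 211 calls, of which 18 were lost under at least 1 setting, in 67 values, 60 of them on leaving out a library. ADAMTS3 in the difference of SOX10 effects lost it most often, in 11 of them. Within the 211, 74 calls were followed further. They belong to the 18 members that were TIMP genes, or changed at least 2-fold in a comparison of knockout or SOX10 and had a group mean of at least 1 CPM. Only their calls in the knockout effect, either SOX10 effect, the difference of these effects and the knockout effect within SOX10 were followed. Their calls between guides, for each guide against control and for knockout with SOX10 against control are not among the 74. The 74 kept direction and call in 1822 values, lost the call in 10 and turned in 1. The turned value was TIMP2 in knockout against control within SOX10, which was 0.00 (adjusted p = 0.943) with library totals as the scale. TIMP1 lost its call there (−0.05, adjusted p = 0.0840), and so did ADAMTS8, whose calls are not among the 74 (−0.72, adjusted p = 0.0812). That scaling shifted the log2 changes of all genes by 0.156 in the knockout effect and 0.143 within SOX10, and 72.0% of calls were then higher after knockout, against 49.3% with TMM. The members higher and lower were then 19 and 11 without SOX10, 13 and 10 within SOX10, and 17 and 10 for knockout with SOX10 against control, where ADAMTS3 (−0.03, adjusted p = 0.663) and TIMP1 (−0.05, adjusted p = 0.101) lost their calls. Of 45 same-number pairs of libraries none had a correlation of deviations over 0.1 (median 0.00572), so the numbers are not taken as pairs. A replicate block kept all 29 member calls of the knockout effect and all 17 of the difference of SOX10 effects, and called 12322 genes for the knockout effect against 12230. The fit of only the groups compared uses all 6 groups for the difference of SOX10 effects and so adds no value there. Depth limits the 7 untested members and those under about 1 CPM, whose folds rest on few counts.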
